A study of Mus musculus with 32 samples.

Results

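The 6 genes of fructose and polyol metabolism described here were Khk, Tkfc, Slc2a2, Slc2a5, Glyctk and Sord. They were taken by name, in a set put together with earlier results of these data known, and all 6 were found among the 47643 Ensembl gene identifiers of the count table. All 6 passed the filter on low counts in liver, where 12391 genes were tested, and in eWAT, where 15187 were tested.

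Fructose enters hepatocytes through hexose transporters of the GLUT family, among them GLUT2 (Slc2a2), which also carries glucose, and GLUT5 (Slc2a5), a transporter specific for fructose. Ketohexokinase (Khk) phosphorylates fructose to fructose 1-phosphate, and triokinase (Tkfc) phosphorylates the glyceraldehyde that its cleavage yields, which brings fructose carbon into glycolysis below its main regulated step. Glyceraldehyde can also leave by way of glycerate, which glycerate kinase (Glyctk) phosphorylates. In the polyol pathway aldose reductase (Akr1b3 in mouse) makes sorbitol from glucose and sorbitol dehydrogenase (Sord) oxidises it to fructose, so that cells can also form fructose from glucose.

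RNA of liver and epididymal white adipose tissue (eWAT) was measured in male C57BL/6J mice that were 10 weeks old when treatment began. For 7 days the mice drank water with 100 µg/mL corticosterone (Cort) or with the ethanol vehicle alone (Veh), and they ate a normal protein diet (NPD, 20% of energy as whey protein and 70% as carbohydrate) or a high protein diet (HPD, 60% protein and 30% carbohydrate). Corn starch was what the HPD held less of, sucrose was matched between the diets, every mouse was fasted for 4 h before necropsy, and several cohorts of mice were used in the study. Each tissue had 4 groups of 4 libraries, named by treatment and diet as Veh NPD, Cort NPD, Veh HPD and Cort HPD, and p-values measure the spread between these libraries, 1 for each numbered sample. The label HPD covers more protein and less carbohydrate together, and the effects of these cannot be told apart.

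The libraries held between 8933307 and 18057936 counts. Liver Veh HPD replicate 4 was left out of the main tests, a choice made with earlier results of these data known, so that this group had 3 libraries. Its summed counts per 1000000 library counts (CPM) of 7 hepatocyte markers were 48628, below the 83594 to 273826 CPM of the other 15 liver libraries. The same 7 markers summed to 32 to 86.9 CPM in eWAT, and 6 adipocyte markers summed to 27729 to 51249 CPM in eWAT and to 22.5 to 84.4 CPM in liver, so both tissue labels held. The hepatocyte sum was 162616 to 273826 CPM in Cort HPD liver against 83594 to 142066 CPM in the other 3 liver groups. The sum of 5 red blood cell markers was 5271 to 7622 CPM in Cort HPD liver against 1358 to 3544 CPM in the other groups, and 12684 to 25856 CPM in Cort HPD eWAT against 3619 to 9273 CPM. Liver Cort NPD replicate 3 held 459 CPM of 5 skeletal muscle markers where the other liver libraries held at most 41.7 CPM. Replicate 4 of eWAT Cort HPD held 12924 CPM of epididymis markers, against at most 5.02 CPM in the other eWAT groups. The part of these cells in the results below was not tested. Where a value without a library is given, all other differences of that library are left out with its cells. In tissue RNA, fewer cells of a type and less RNA per cell cannot be told apart.

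On GRCm38, with GENCODE annotation, Khk lay at chr5:30921431-30931248 on the plus strand, Sord at chr2:122234749-122265340 (+), Slc2a2 at chr3:28697903-28731359 (+), Slc2a5 at chr4:150119283-150144169 (+), Tkfc at chr19:10587791-10605654 (−) and Glyctk at chr9:106152857-106158138 (−). Khk, Slc2a5 and Sord overlapped no other annotated gene. The 3′ end of Tkfc, where QuantSeq reads gather, shared 8171 bases with Cyb561a3 on the opposite strand, and Cyb561a3 had 0 to 3 counts in every library. Whether reads were counted by strand is not stated in the sources used here, and without strand the reads of the pair cannot be told apart. Slc2a2 overlapped the antisense gene 1700112D23Rik and Glyctk overlapped D030055H07Rik, both under 1 CPM in all groups.

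Promoter sequences of RefSeq (GRCm38.p6) are shown for 3 members whose RNA is followed below, because the study contrasts a glucocorticoid with its vehicle and a diet rich in carbohydrate with a poorer one. The 250 bases before each of the 6 starts were searched on both strands for CACGTG, the E-box of the carbohydrate response element, for a pair of such boxes 5 bases apart, for the glucocorticoid response palindrome (AGAACA and TGTTCT with 3 bases between) and for its core ACANNNTGT. Of 32851 windows of this length, 6.02% held CACGTG, 5.84% held the core and 0.00913% held the whole palindrome, while the pair of boxes was found in 0. Among the members, Khk alone held CACGTG, Glyctk alone held the core, and none held the palindrome. The windows lie before RefSeq starts and can reach into a gene. Of the 250 bases, 128 for Khk, 90 for Sord, 61 for Slc2a5 and 15 for Tkfc lay in annotated exons of the gene itself. The Khk match lay downstream of the GENCODE start given above. In the lines below the capitals mark these matches, and the Khk stretch is kept short because it lies in an exon of another annotated transcript.
Khk, chr5:30921476-30921505 (+): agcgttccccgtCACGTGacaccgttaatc
Glyctk, chr9:106158238-106158267 (−): ctttggaagtACAGGATGTggaagaagaat
Slc2a2, chr3:28697653-28697902 (+): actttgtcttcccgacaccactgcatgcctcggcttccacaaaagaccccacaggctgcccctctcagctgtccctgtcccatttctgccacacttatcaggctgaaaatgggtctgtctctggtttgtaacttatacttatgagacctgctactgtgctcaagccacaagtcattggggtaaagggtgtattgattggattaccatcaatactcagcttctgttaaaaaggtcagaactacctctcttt
The Slc2a2 stretch ends where its first annotated exon begins and holds neither motif. The RefSeq window of Tkfc lies inside the GENCODE gene, downstream of other annotated starts, so its search does not cover those starts and it is not printed. A match is only a run of letters, and its lack says nothing of whether a factor binds there.

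The first question was what Cort did to these genes in the liver of mice on the NPD. Transcripts of both enzymes of fructose use and of both transporters rose, Tkfc 4.30-fold, Slc2a5 2.67-fold, Khk 2.25-fold and Slc2a2 2.0-fold over Veh, with a smaller rise of Sord (1.37-fold). By edgeR's quasi-likelihood test, adjusted over all 12391 genes, 5 of 6 members were higher and 0 lower, where 6.84% of all genes tested were called higher and 5.79% lower. All 6 members, Glyctk included, had every Cort NPD library above every Veh NPD library, an ordering found upward in 9.4% of genes. The median log2 change was 1.08 over the members and -0.01 over all genes tested.

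Khk had 247, 282, 332 and 401 CPM in the Veh NPD livers and 742, 825, 574 and 701 CPM in the Cort NPD livers. The lowest cort-treated library thus stood well above the highest control library, and the log2 change was 1.17 (SE 0.17, adjusted p = 6.3e-05). Tkfc, the triokinase, went from 98.2, 91.9, 97.4 and 82.3 CPM to 299, 432, 337 and 524 CPM. The control libraries lay close together and the treated ones spread over a wide range, with a log2 change of 2.11 (SE 0.20, adjusted p = 1.6e-07).

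Both transporters rose on the NPD. Slc2a2 had 101, 111, 164 and 144 CPM in Veh NPD and 228, 236, 267 and 310.0 CPM in Cort NPD, a log2 change of 1.0 (SE 0.20, adjusted p = 0.0017). Slc2a5 was counted rarely, with 35 to 91 counts in a Veh NPD library and 162 to 218 in a Cort NPD library. It had 4.66, 3.72, 7.88 and 5.50 CPM against 16.8, 14.0, 14.6 and 13.1 CPM, and its log2 change was 1.42 (SE 0.27, adjusted p = 0.0015). When all 16 liver libraries were fitted, the adjusted p of Slc2a5 was 0.062 and that of Sord 0.23, and 3 members were called.

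Sord and Glyctk moved least on the NPD. Sord, the enzyme of the polyol pathway, had 468, 546, 609.9 and 485 CPM in Veh NPD and 753, 785, 626 and 732 CPM in Cort NPD, and the lowest treated library was just above the highest control library. Its log2 change was 0.46 (SE 0.14, adjusted p = 0.032), and it passed the threshold in 14 of 24 alternative settings. Glyctk had 133.5, 133, 134 and 106 CPM in Veh NPD against 173, 149, 272 and 169.9 CPM in Cort NPD, a log2 change of 0.59 (SE 0.20) that missed the threshold with an adjusted p of 0.0504 and passed it in 7 of 24 alternative settings. The highest Glyctk value belonged to replicate 3, the library with skeletal muscle markers, and without it the log2 change was 0.36 (adjusted p = 0.26).

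**Figure D1:**
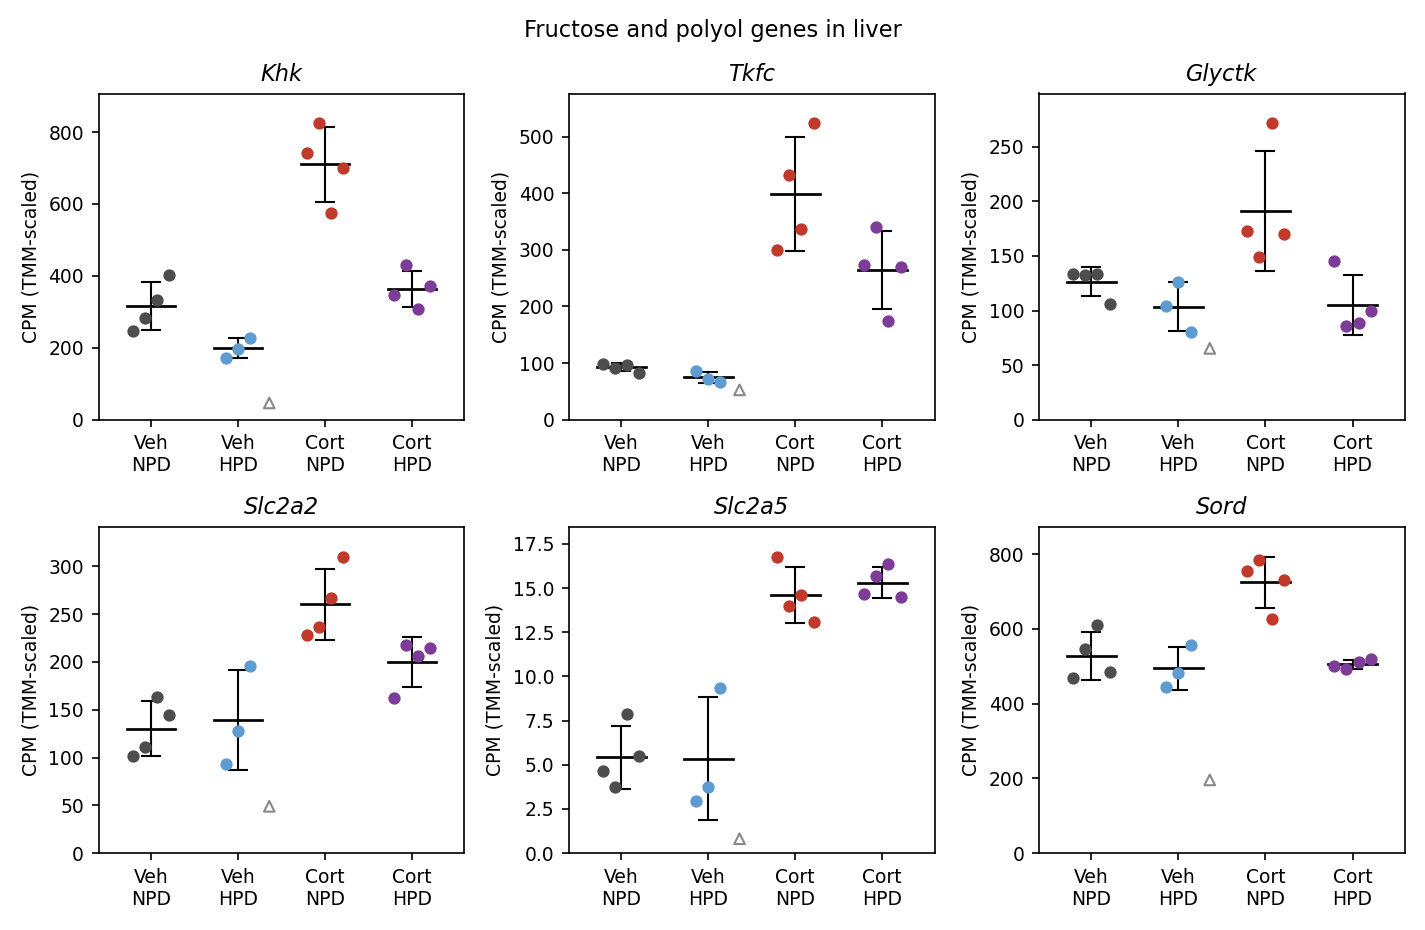
TMM-scaled CPM of the 6 members in each liver library, by group, with a panel and a linear axis per gene; points are libraries, bars give the mean and SD, and the open grey triangle is the left-out library Veh HPD replicate 4. Khk stood at 574 to 825 CPM in Cort NPD liver, above all other groups, and Slc2a5 stood at 13.1 to 16.8 CPM in both Cort groups and at 2.96 to 9.32 CPM in both Veh groups.

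On the HPD, Cort raised Tkfc, Slc2a5 and Khk again, while Slc2a2, Glyctk and Sord did not pass the test. That made 3 of 6 members called higher and 0 lower, beside 4.75% of all genes called higher and 5.14% lower. The members' median log2 change was 0.70, with a median within 0.01 of 0 over all genes. In the same 3 members, and no other, every Cort HPD library stood above every Veh HPD library, as in 10.7% of genes. Of all genes, 589 were called higher and 637 lower in this contrast. Scaling by library totals alone gave 275 higher and 1272 lower with an all-gene median of -0.24. Liver Cort HPD replicate 1 had 42.2% of its counts in its 10 top genes and a TMM scaling factor of 0.754. The other fitted liver libraries had 27.7% to 35.0% and factors of 0.911 to 1.11.

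Tkfc had 86.1, 72.4 and 66.7 CPM in the 3 Veh HPD livers and 273, 340.3, 174 and 269 CPM in the Cort HPD livers, a 3.52-fold rise (log2 1.81, SE 0.22, adjusted p = 9.3e-06). Khk had 173, 196 and 228 CPM against 345, 429, 307 and 372 CPM, a 1.83-fold rise (log2 0.87, SE 0.19, adjusted p = 0.0042). In both enzymes the groups were well apart. Slc2a5, the fructose transporter, had 2.96, 3.72 and 9.32 CPM against 14.7, 15.7, 16.4 and 14.5 CPM, a 2.87-fold rise (log2 1.52, SE 0.30, adjusted p = 0.0023). Veh HPD replicate 3 lay above the other control libraries, and the treated libraries lay within a narrow range.

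Slc2a2 had 93.5, 127 and 196 CPM in Veh HPD and 162, 218, 206 and 215 CPM in Cort HPD, and the groups overlapped (log2 0.53, SE 0.22, adjusted p = 0.13). The high value was again Veh HPD replicate 3, and without it the log2 change was 0.86 (adjusted p = 0.020). Glyctk was at 104 ± 22.8 CPM in Veh HPD and 105 ± 27.7 CPM in Cort HPD (SD, n = 3 and 4), a log2 change of 0.02 (SE 0.21, adjusted p = 0.97). Sord was at 495 ± 57.6 and 505 ± 11.9 CPM, a log2 change of 0.03 (SE 0.15, adjusted p = 0.93). With library totals in place of TMM factors the changes of Glyctk and Sord turned to -0.24 and -0.21, both short of the threshold.

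**Figure D2:**
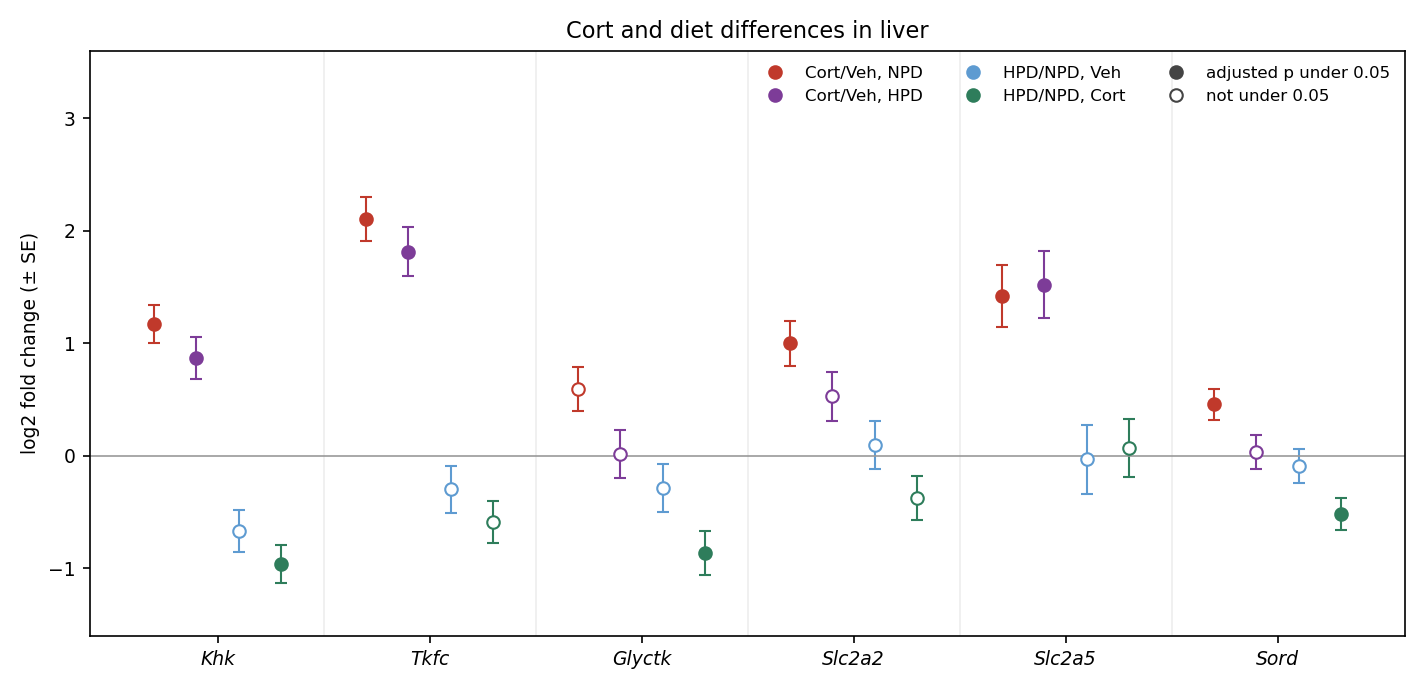
Log2 fold changes of the 6 members in liver for Cort against Veh on each diet and for HPD against NPD under each treatment; points are edgeR estimates, bars give 1 SE, and filled points had an adjusted p under 0.05. Tkfc showed the largest Cort change of the members on both diets (2.11 and 1.81), and Khk showed the largest diet difference in cort-treated mice (-0.97).

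Diet alone, in mice given vehicle, moved none of the members past the threshold in liver. The edgeR test called 0 of 6, beside 0.169% of all genes in either direction, and 1 member had an unadjusted p under 0.05, as did 9.4% of genes. limma voom called 0 with and without quality weights, and DESeq2 called 1. That member was Khk, which had 173, 196 and 228 CPM on the HPD and 247, 282, 332 and 401 CPM on the NPD. Every HPD library was below every NPD library, an ordering found downward in 4.7% of genes, and the log2 difference was -0.67 (SE 0.18, adjusted p = 0.18 with edgeR and 0.039 with DESeq2). The other 5 members had log2 differences between -0.30 (Tkfc) and 0.09 (Slc2a2), each with overlapping groups.

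Among cort-treated mice the HPD livers held less of 3 members: Khk, Glyctk and Sord. These 3 of 6 were called lower and 0 higher, beside 2.8% of all genes called lower and 3.08% higher. Slc2a2 also had every Cort HPD library below every Cort NPD library, so that 4 members had this ordering, seen downward in 6.65% of genes. The median log2 difference was -0.56 over the members and -0.01 over all genes. Over all genes 382 were called higher and 347 lower, and scaling by library totals gave 221 and 730 with an all-gene median of -0.18. The hepatocyte and red blood cell marker sums were higher in Cort HPD than in Cort NPD liver, as given above, and their part in these differences was not tested.

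Khk was at 710.4 ± 105 CPM in Cort NPD and 363 ± 51.2 CPM in Cort HPD liver (SD, n = 4 each), a log2 difference of -0.97 (SE 0.17, adjusted p = 0.0014). The Cort HPD libraries, at 307 to 429 CPM, lay below the Cort NPD range of 574 to 825 CPM and overlapped the Veh NPD range of 247 to 401 CPM. With all 16 liver libraries in the fit the difference was -0.96 but its adjusted p was 0.12.

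Sord was at 724 ± 68.9 CPM in Cort NPD and 505 ± 11.9 CPM in Cort HPD, where its 4 libraries of 500.1, 491, 512 and 518 CPM lay close together. The log2 difference was -0.52 (SE 0.14, adjusted p = 0.030), and it held in 15 of 24 alternative settings. Glyctk had 145, 85.7, 88.8 and 99.5 CPM in Cort HPD against 173, 149, 272 and 169.9 CPM in Cort NPD (log2 -0.86, SE 0.20, adjusted p = 0.012). Without Cort NPD replicate 3, the library with muscle markers, the difference was -0.64 and its adjusted p 0.064.

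Tkfc and Slc2a2 were at lower means on the HPD under Cort without passing the test. Tkfc was at 398 ± 101 CPM in Cort NPD and 264 ± 68.4 CPM in Cort HPD, with overlapping groups (log2 -0.59, SE 0.19, adjusted p = 0.065), and it passed the threshold in 5 of 24 alternative settings. Slc2a2 was at 260.3 ± 37.1 and 200.2 ± 26 CPM (log2 -0.38, SE 0.20, adjusted p = 0.27). Slc2a5 was nearly level between the diets under Cort, at 14.6 ± 1.58 CPM on the NPD and 15.3 ± 0.892 CPM on the HPD (log2 0.07, SE 0.26, adjusted p = 0.91).

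Whether the Cort response itself differed between the diets was tested by the interaction of diet and Cort. By edgeR 0 of 6 members passed in liver, beside 0.113% of all genes in either direction, and DESeq2, limma voom and limma voom with quality weights each called 0. Sord alone had an unadjusted p under 0.05, as 12.1% of genes did, with a log2 interaction of -0.43 (SE 0.20, adjusted p = 0.41). Glyctk had -0.58 (SE 0.29, adjusted p = 0.44), Slc2a2 -0.47, Khk -0.30, Tkfc -0.29 and Slc2a5 0.10. The calls of Slc2a2 and Sord on the NPD and not on the HPD are therefore no tested difference between the diets. The 2 Cort contrasts share no library, while each shares its Veh or its Cort group with a diet contrast.

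Ordered by group mean in liver, Khk, Tkfc, Slc2a2, Glyctk and Sord were all highest in Cort NPD. For Khk the order was Cort NPD, Cort HPD, Veh NPD and Veh HPD, and only Cort HPD and Veh NPD overlapped as neighbours. Tkfc had the same order, with overlap within each treatment and none between Cort and Veh. Slc2a5 split by treatment alone, with both Cort groups overlapping each other and both Veh groups overlapping each other. Glyctk and Sord had Cort NPD apart from the rest, and their other 3 groups overlapped in a chain.

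The other genes of the pathway moved less as a set. Of 32 transporters and enzymes of hexose, triose and polyol metabolism outside the 6 members, 26 were tested in liver. Cort on the NPD raised 6 and lowered 0, beside 6.84% of all genes called higher and 5.79% lower. The median log2 change of the 26 was 0.08. The genes raised were Aldoa, an aldolase of glycolysis (0.73, SE 0.17), Aldh1b1, a mitochondrial aldehyde dehydrogenase (1.07, SE 0.17), and Galm, galactose mutarotase (0.77, SE 0.13). The others were Akr1b7, an aldo-keto reductase (4.09, SE 0.64), and the transporters Slc2a9 (0.60, SE 0.17) and Slc2a4 (2.59, SE 0.78). Akr1b7 was scarce, at 0.276 ± 0.232 CPM in Veh NPD and 4.99 ± 0.977 CPM in Cort NPD. Slc2a4, the insulin-regulated transporter of muscle and fat, had few counts in liver, and its groups overlapped. It had 4, 3, 0 and 9 counts in the Veh NPD libraries and 4, 11, 69 and 35 in the Cort NPD libraries. Its highest liver value of 5.22 CPM was in Cort NPD replicate 3, the library with muscle markers. Aldose reductase, Akr1b3, which feeds Sord, was too low in liver to be tested, at 0.157 to 0.401 CPM in the group means.

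On the HPD Cort raised 2 of the 26 (Akr1b7 by 2.95 and the triose isomerase Tpi1 by 0.52) and lowered 0. Of all genes, 4.75% were called higher and 5.14% lower there. The diet contrast in Veh mice called 1 of the 26 higher, Aldh1b1 (1.21, SE 0.18), and 0 lower, beside 0.169% of all genes in either direction. Under Cort the diet contrast called 3.08% of all genes higher and 2.8% lower. In cort-treated mice the HPD livers held more of Aldoc (1.13, SE 0.31) and Aldh1b1 (0.70, SE 0.16) and less of Slc2a9 (-0.61, SE 0.17) and the xylulokinase Xylb (-0.59, SE 0.15). Slc2a9, a urate transporter, had 19.8 ± 2.83 CPM in Veh NPD, 19.9 ± 2.93 CPM in Veh HPD and 19.8 ± 3.95 CPM in Cort HPD, against 30.1 ± 3.50 CPM in Cort NPD.

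**Figure D3:**
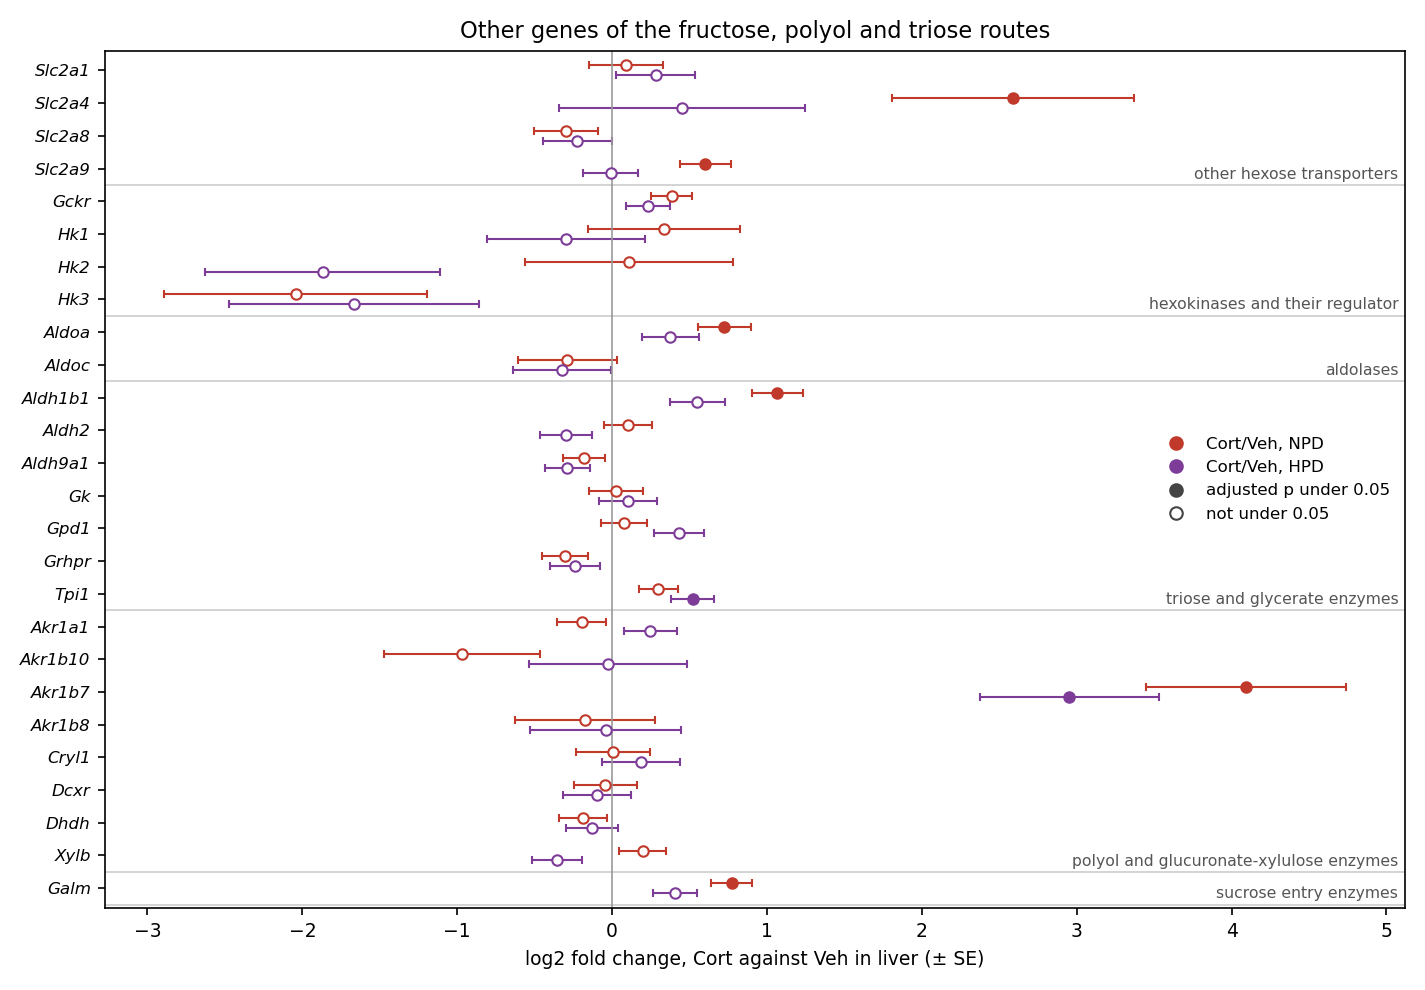
Log2 fold changes in liver for the pathway genes other than the members, Cort against Veh for each diet, set out by list; points are edgeR estimates, bars give 1 SE, and filled points had an adjusted p under 0.05. Akr1b7 (4.09 and 2.95) rose on both diets, and Aldh1b1 (1.07) and Galm (0.77) rose on the NPD.

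A list of 7 sucrose degradation genes, which shares Khk and Tkfc with the members, had 4 of 6 tested genes called higher in NPD liver and 3 in HPD liver, with 0 lower. Under Cort the HPD had 1 of the 6 higher (Aldoc) and 1 lower (Khk), and in Veh mice 0. The shares of all genes called with Cort were 6.84% higher and 5.79% lower on the NPD, and 4.75% and 5.14% on the HPD. For diet they were 3.08% and 2.8% under Cort, and 0.169% in either direction in Veh mice. A list of 18 genes of the carbohydrate response included the transcription factor genes Mlxipl and Mlx, which act in that response. Of these 18, Cort on the NPD raised 3 in liver, among them the liver pyruvate kinase Pklr (1.61, SE 0.22). Cort lowered 2, Srebf1 (-1.25, SE 0.32) and Mlx (-0.68, SE 0.15). On the HPD it raised Pklr (0.85, SE 0.24) and G6pc (1.17, SE 0.26) and lowered Txnip (-1.33, SE 0.20). In the diet contrast under Cort 0 of the 18 were higher and 2 lower, Pklr (-1.59, SE 0.22) and Txnip (-1.53, SE 0.19), and in Veh mice 0 were called. Pklr went from 64.6 ± 15.6 CPM in Veh NPD to 197 ± 36.9 CPM in Cort NPD and 65.2 ± 22.0 CPM in Cort HPD liver.

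Genes regulated directly by the glucocorticoid receptor were called in both directions after 7 days. With Cort, 6.84% of all genes were called higher and 5.79% lower on the NPD, and 4.75% and 5.14% on the HPD. The diet contrast under Cort called 3.08% of all genes higher and 2.8% lower. Whether this list differed from all genes was not tested. Of 13 such genes tested in liver, Cort on the NPD raised Lcn2 (4.86, SE 0.33) and Fkbp5 (2.23, SE 0.48) and lowered Tat (-1.25, SE 0.38). On the HPD it raised Lcn2 (4.74, SE 0.36) and lowered Per1, Klf9 and Zbtb16. The diet contrast under Cort called Tat higher and Zbtb16 lower, and that in Veh mice called 0.

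Across the 15 liver libraries the members varied together to different degrees. Pearson's r of log2 CPM was 0.84 for Khk with Tkfc, 0.89 for Slc2a2 with Slc2a5 and 0.17 for Slc2a5 with Glyctk. The gene most like Khk was Pklr (r = 0.94), the gene most like Tkfc was Plcxd1 (0.98), and the gene most like Sord was Retsat (0.94). Slc2a2 was most like Klhdc10 (0.93), Slc2a5 most like Ttc23 (0.94) and Glyctk most like Trp53inp2 (0.93). These libraries share the treatment groups and, within a library, their depth and scaling, so the values describe the pattern over groups.

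In eWAT none of the members passed the test in any contrast. The edgeR test called 0 of 6 for Cort on the NPD, where 7.98% of all genes were called in either direction, for Cort on the HPD (6.09%), for diet in Veh mice (0.0593%), for diet in cort-treated mice (0.487%) and for the interaction (0.0132%). DESeq2, limma voom and limma voom with quality weights also called 0 in each of these. The unadjusted p was under 0.05 for 3 members in the Veh diet contrast (8.03% of genes), for 1 in the Cort diet contrast (9.81%), and for 0 with Cort on the NPD (20.3%), with Cort on the HPD (18.9%) and in the interaction (5.16%).

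The 2 enzymes of fructose use were present in eWAT far below their liver level. Khk was at 7.49 ± 2.66 CPM in Veh NPD, 11.7 ± 3.80 in Veh HPD, 6.06 ± 1.57 in Cort NPD and 8.92 ± 2.92 in Cort HPD (SD, n = 4 each). All 4 groups overlapped, and the log2 change with Cort was -0.30 in NPD mice (SE 0.32, adjusted p = 0.67) and -0.40 in HPD mice (SE 0.31, adjusted p = 0.54). On the HPD in Veh mice Khk was at a higher mean (log2 0.65, SE 0.31, adjusted p = 0.61). Tkfc was at 11.0 ± 2.70, 8.68 ± 3.13, 13.9 ± 2.64 and 11.5 ± 4.09 CPM in the same order of groups, with log2 Cort changes of 0.34 and 0.39 and overlap throughout.

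Sord was well covered in eWAT, and its groups lay close together. It had 58.5, 65.1, 48.3 and 59.5 CPM in Veh NPD, 35.8, 52.9, 48.8 and 53.2 in Veh HPD, 58.3, 56.1, 51.4 and 57.1 in Cort NPD, and 45.9, 51.4, 48.4 and 51.4 in Cort HPD. Under Cort the HPD libraries lay just below the NPD libraries, an ordering found downward in 3.65% of genes, with a log2 difference of -0.18 (SE 0.13, adjusted p = 0.72). In Veh mice the difference was -0.28 (SE 0.13, adjusted p = 0.62).

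Slc2a5 had few counts in eWAT. The Veh NPD libraries had 23, 12, 6 and 33 counts, the Veh HPD libraries 0, 0, 0 and 6, the Cort NPD libraries 43, 17, 13 and 43, and the Cort HPD libraries 0, 1, 16 and 4. In CPM the NPD means were 1.25 ± 0.80 with Veh and 2.25 ± 1.35 with Cort, and the HPD means 0.0973 ± 0.195 with Veh and 0.357 ± 0.483 with Cort. Every Veh HPD library was below every Veh NPD library, an ordering seen downward in 2.22% of genes, and in cort-treated mice the diets overlapped. The fitted log2 difference between diets was -3.61 in Veh mice (SE 1.3, adjusted p = 0.40) and -2.59 in cort-treated mice (SE 1.20, adjusted p = 0.47), and with so many zeros its size depends on the prior count of the fit. Without eWAT Cort HPD replicate 4, the library with epididymis transcripts, the second was -2.45 (adjusted p = 0.67), and without replicate 3 of that group, which held 16 counts, it was -4.08 (adjusted p = 0.38). The Veh HPD counts all came from replicate 4, and without it that group was at 0 throughout.

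Slc2a2 and Glyctk had few counts in eWAT. Slc2a2 had 0 to 33 counts in a library and group means of 0.197 to 1.22 CPM, with log2 Cort changes of -0.55 (SE 1.28) on the NPD and -1.84 (SE 1.36) on the HPD. Glyctk had 12 to 72 counts and means of 2.73 ± 1.65 CPM in Veh NPD, 2.80 ± 0.764 in Veh HPD, 1.21 ± 0.339 in Cort NPD and 1.5 ± 0.879 in Cort HPD. Its log2 change with Cort was -1.17 in NPD mice (SE 0.62, adjusted p = 0.29) and -0.89 in HPD mice (SE 0.61, adjusted p = 0.47), with overlapping groups. Counting error and the spread between libraries were not separated for these genes.

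**Figure D4:**
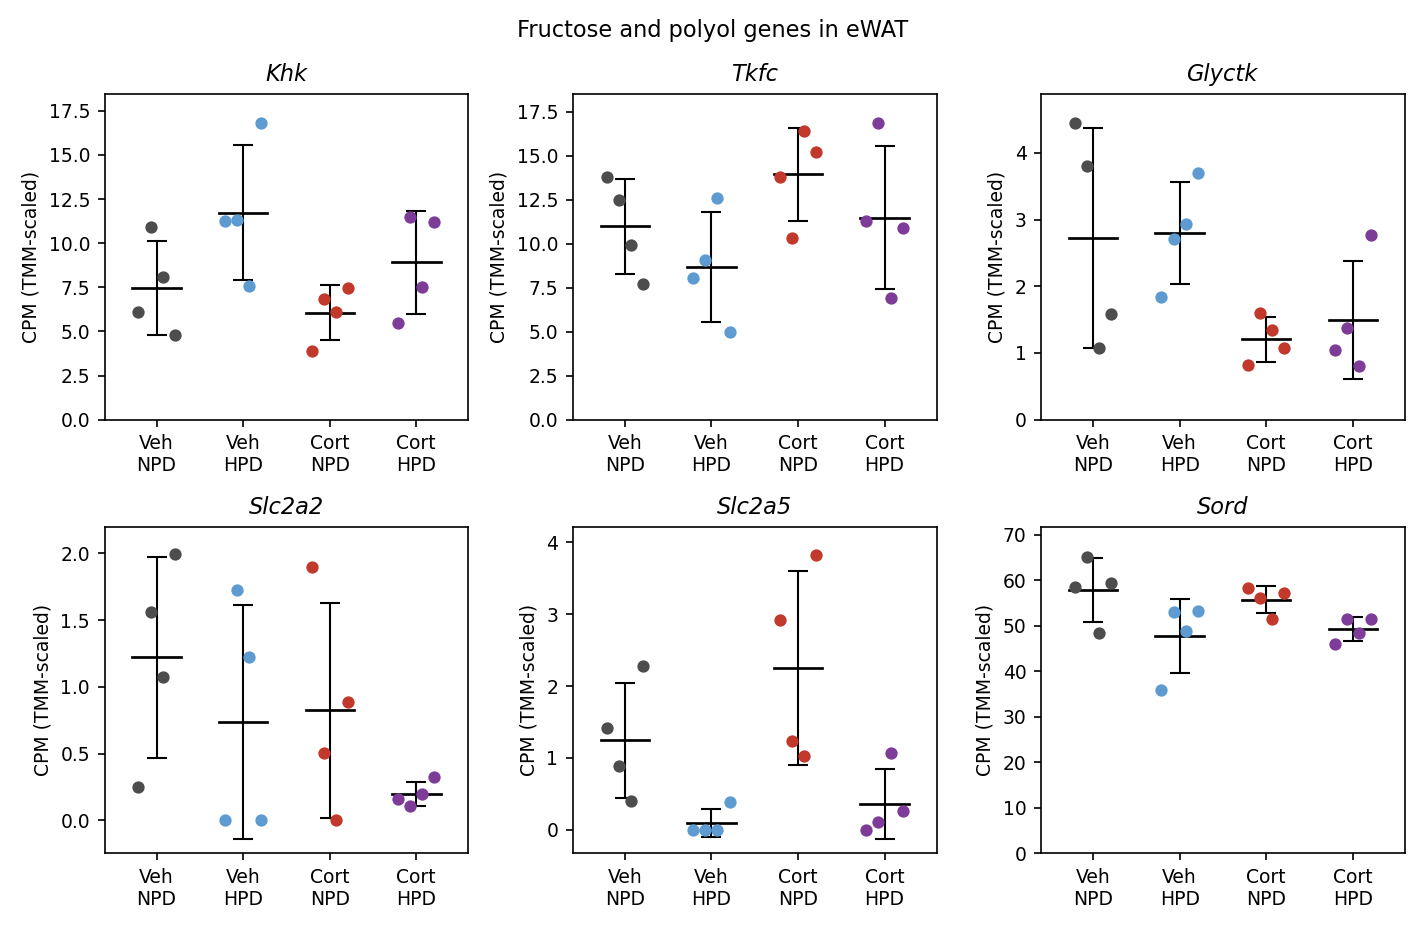
TMM-scaled CPM of the 6 members in each eWAT library, by group, with a panel and a linear axis per gene; points are libraries and bars give the mean and SD. Sord lay between 35.8 and 65.1 CPM in all groups, and Slc2a5 was at 0 in 3 of 4 Veh HPD libraries.

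Some other pathway genes were called in eWAT. Of all genes tested there, Cort called 7.98% on the NPD and 6.09% on the HPD in either direction. Diet called 0.0593% in Veh mice and 0.487% in cort-treated mice. Of 28 pathway genes tested in eWAT, Cort on the NPD raised 4 (Slc2a4 by 1.14, Hk2 by 0.87, Aldoa by 0.94 and Tpi1 by 0.44 on the log2 scale). It lowered Hk1 (-0.74). On the HPD it raised 5 (Hk2, Aldoa, Tpi1, Gk and Akr1a1, by 0.41 to 1.91) and lowered 0. Diet called 0 of the 28 in Veh mice and 1 in cort-treated mice, Aldoa (-0.78, SE 0.15). Akr1b3 was at 3.6 to 5.42 CPM in the eWAT group means and was called in none of the 5 contrasts. Of 15 genes of the carbohydrate response tested, Cort raised 4 and lowered 0 on the NPD and raised 2 and lowered 1 on the HPD. Diet called 0 of them in Veh mice, and under Cort Me1 (-1.63, SE 0.27) and Scd1 (-1.26, SE 0.26) were lower on the HPD. Of 12 glucocorticoid receptor targets tested, 4 rose and 0 fell on the NPD and 3 rose and 2 fell on the HPD, with 0 called between diets. Of the 6 sucrose degradation genes tested, Aldoa and Tpi1 rose on both diets, and Aldoa was lower on the HPD under Cort. Across the 16 eWAT libraries Slc2a5 was most like Adap1 (r = 0.89) and Fasn (0.86), as a description over libraries that share groups.

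Both tissues were then fitted together, over 16482 genes and 31 libraries. In Veh NPD mice all 6 members were higher in liver than in eWAT, beside 29% of all genes called higher there. The log2 difference was 7.79 for Slc2a2 (SE 0.63), 6.56 for Glyctk (SE 0.38), 6.44 for Khk (SE 0.29), 4.23 for Sord (SE 0.15), 4.11 for Tkfc (SE 0.27) and 3.15 for Slc2a5 (SE 0.56). Akr1b3 was lower in liver (-3.87, SE 0.67), so that the enzyme that makes sorbitol and the enzyme that uses it had opposite tissue differences. The median over all genes was -0.26, and with library totals -1.28, so tissue differences are relative to the scaling. The shares that follow come from CPM scaled within each tissue, so they are not on the scale of the joint fit. Over the fitted libraries the mean in eWAT was 2.08% of that in liver for Khk, 5.21% for Tkfc, 0.402% for Slc2a2, 9.42% for Slc2a5, 1.54% for Glyctk and 9.28% for Sord. Albumin, a transcript of hepatocytes, was at 0.0749% and Fgb at 0.00131%, below the shares of all 6 members.

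The Cort response was larger in liver than in eWAT for part of the set. On the NPD the difference of the log2 changes was 1.81 for Tkfc (SE 0.35, adjusted p = 0.0018), 1.52 for Khk (SE 0.34, adjusted p = 0.0079) and 1.81 for Glyctk (SE 0.50, adjusted p = 0.035), which made 3 of 6 called higher beside 2.51% of all genes. For Glyctk it joined a change of 0.59 in liver with one of -1.17 in eWAT, neither of which passed alone, and without liver Cort NPD replicate 3 it was 1.59 (adjusted p = 0.078), and the call was lost in 13 of 24 alternative settings. Sord had 0.55 (SE 0.19, adjusted p = 0.095), Slc2a2 1.54 (SE 0.85, adjusted p = 0.40) and Slc2a5 0.63 (SE 0.76, adjusted p = 0.77). On the HPD, Tkfc (1.39, SE 0.37, adjusted p = 0.029) and Khk (1.23, SE 0.35, adjusted p = 0.047) were called higher, 2 of 6 beside 1.11% of all genes. Of 23 alternative settings, the call of Khk was lost in 14 and that of Tkfc in 8. Leaving out 1 library at a time moved Khk between 1.07 and 1.45 with adjusted p from 0.013 to 0.12, and the calls were lost without 9 of 15 libraries for Khk and 5 of 15 for Tkfc.

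The diet difference in cort-treated mice had opposite signs in the 2 tissues for Khk, -0.97 in liver and 0.56 in eWAT. Their difference was -1.56 (SE 0.34, adjusted p = 0.019), and Khk was the 1 member of 6 called lower beside 0.843% of all genes. Without eWAT Cort HPD replicate 4 it was -1.36 (adjusted p = 0.062), and without eWAT Cort NPD replicate 1 it was -1.32 (adjusted p = 0.061). Slc2a5 had the largest positive value, 2.52 (SE 0.83, adjusted p = 0.13), and the all-gene median was -0.12.

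**Figure D5:**
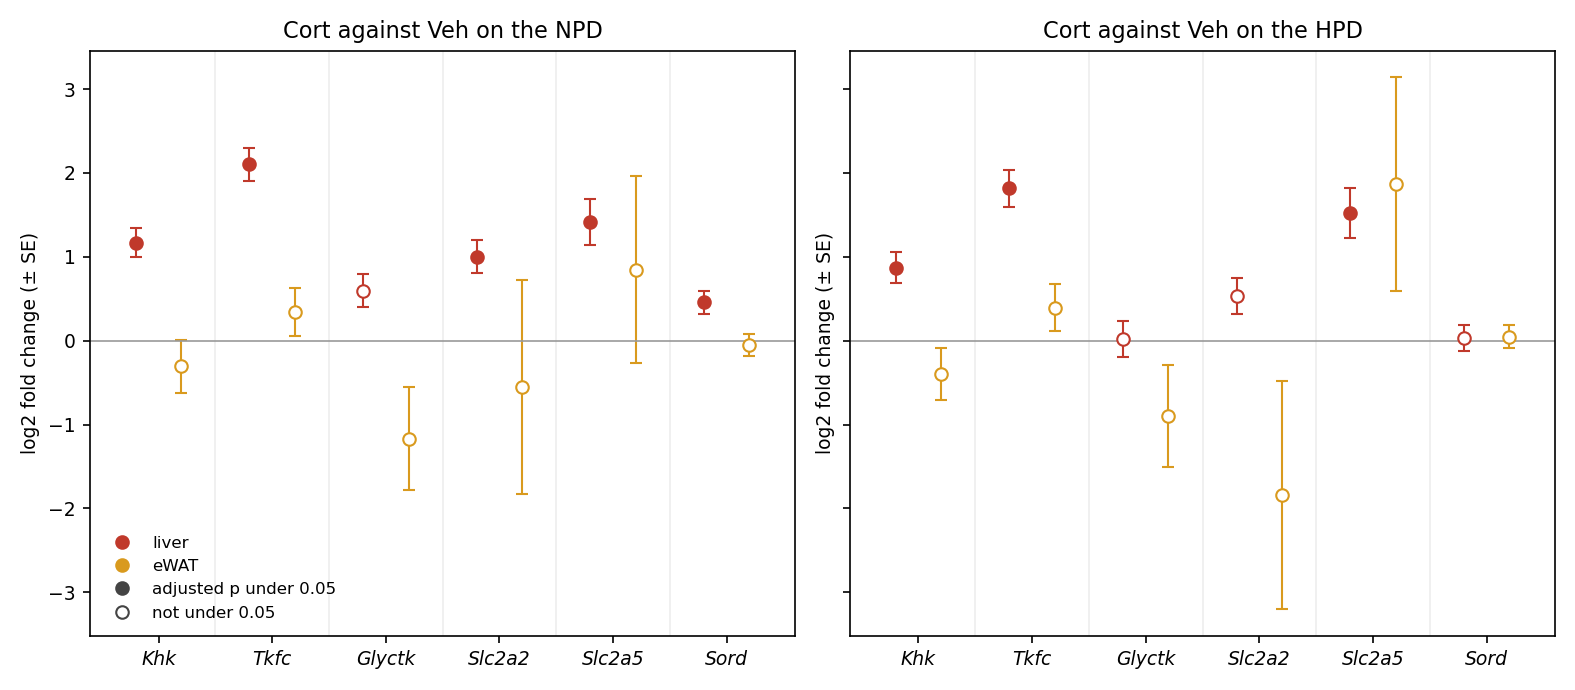
Log2 fold changes of the 6 members with Cort in liver and in eWAT on each diet; points are edgeR estimates from the fits within a tissue, bars give 1 SE, and filled points had an adjusted p under 0.05. Filled points were seen in liver only (5 on the NPD and 3 on the HPD), and the bars of Slc2a2 and Slc2a5 were wide in eWAT.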

How the data were processed

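Liver and eWAT RNA was sequenced by the authors with Lexogen QuantSeq 3′ mRNA-Seq V2 FWD libraries, which read transcript ends, and the deposited values were raw counts per Ensembl gene for 32 libraries. The submitters' processing notes name GRCm38 (mm10), R 4.0.3 and limma, while the aligner, the counter, the annotation, the handling of duplicates and the use of strand are not given in the sources used here. With 3′ reads a change in the poly(A) site used can change a count, and CPM was compared within a gene only.

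Counts were tested in R 4.3.3 with edgeR 4.0.16 (filterByExpr with a minimum count of 10 and a minimum total of 15, TMM factors, robust quasi-likelihood fit, 1 mean per group) with Benjamini-Hochberg adjustment over all genes tested, and a gene was called at an adjusted p under 0.05. The SE given with an edgeR estimate is the absolute log2 change divided by the square root of its quasi-likelihood F statistic. It is thus calculated back from the test. Liver fits used 15 libraries, eWAT fits 16 and the joint fit 31. CPM values were scaled by the TMM factors within a tissue. The left-out library, also where it is drawn in a figure, was scaled with all 16 liver libraries and the other 15 without it. Correlations used log2 CPM with a prior count of 2. The alternatives were library totals, RLE factors, no filter, DESeq2 1.42.0, limma 3.58.1 voom with and without quality weights, only the groups compared, a replicate block, all libraries, and leaving out each library. For the Cort and diet responses between tissues, the replicate block was 1 term for each treatment, diet and number, shared by both tissues. The tests were also run on simulated counts with 200 changed genes, all well counted and changed by the same large size, with a fixed dispersion for all genes. That run does not cover small changes or low counts such as those of members in eWAT. The 6 members and the gene lists were chosen with earlier results of these data known, so that list counts are descriptions. The text names the members in every comparison, Akr1b3 where it was measured, the listed genes that were called (for the longer lists the leading ones by p), and the 3 genes most like each member at most. No 2 libraries of a group were identical in 48 pairs compared. Neither the cohort nor the mouse of a library is given in the labels, so cohort effects were not tested. No column of the table was left unused. Some genes of the pathway are not reported here and were left out of the list counts.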

Additional observations from a re-analysis of the deposited data

Results flagged for a closer look

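In 2 of 42 sets of 4 libraries, a set being 1 member in 1 group, the lowest or highest library stood apart by Dixon's criterion (the gap to the next library over the whole range), and chance alone marks about 1 in 20 such sets. In liver Veh NPD, Glyctk was at 106 CPM in replicate 4 and at 133 to 134 CPM in the other replicates. In eWAT Veh HPD, Slc2a5 was at 0.389 CPM (6 counts) in replicate 4 and at 0 in the other 3.

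The log2 change with Cort differed between liver and eWAT on the NPD for Khk by 1.52 (SE 0.34, adjusted p = 0.0079), for Tkfc by 1.81 (SE 0.35, adjusted p = 0.0018) and for Glyctk by 1.81 (SE 0.50, adjusted p = 0.035). On the HPD it differed for Khk by 1.23 (SE 0.35, adjusted p = 0.047) and for Tkfc by 1.39 (SE 0.37, adjusted p = 0.029). The HPD difference in cort-treated mice differed between the tissues for Khk by -1.56 (SE 0.34, adjusted p = 0.019). These are liver minus eWAT values of edgeR's quasi-likelihood test in the joint fit, and whether the same mice gave both tissues is not given in the labels.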

How the results depend on the processing

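Across the alternatives that left out no library, 637 of 686 values for the members kept their direction and their side of the threshold, 24 lost the call, 11 gained it and 14, all uncalled, changed sign. Leaving out each library in turn gave 1260 values, of which 1178 were unchanged in this sense, 38 lost the call, 7 gained it and 37 changed sign. In liver, Khk and Tkfc were called for Cort on both diets, Slc2a2 on the NPD and Slc2a5 on the HPD, under every alternative run. The cause of the changes below was not tested.

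With all 16 liver libraries, 3 members in place of 5 were higher with Cort on the NPD and 1 in place of 3 was lower on the HPD under Cort, the diet difference of Slc2a2 in Veh liver turned to -0.16 and the liver interaction of Khk to 0.015. With all 32 libraries, 1 member was called for the Cort response on the HPD between tissues (where Sord turned to 0.24) and 0 for the diet difference between tissues. DESeq2 called 1 member lower for diet in Veh liver (Khk) and 1 higher for the diet difference between tissues (Slc2a5, 2.64). For the Cort response on the HPD between tissues 0 members were called with library totals, with quality weights and with no filter, and 1 with the replicate block. Quality weights also left 0 for the diet difference between tissues.

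Library totals turned the HPD Cort changes in liver to -0.24 (Glyctk) and -0.21 (Sord), the diet differences of Slc2a5 in liver to -0.10 under Cort and 0.028 in Veh mice and its liver interaction to -0.12. Quality weights turned the HPD Cort change of Glyctk in liver to -0.18. In the eWAT interaction limma voom gave 1.05 for Slc2a2 and -0.013 for Tkfc, and quality weights gave 0.52 for Slc2a2, -0.18 for Glyctk and -0.13 for Tkfc.

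Leaving out 1 library at a time gave these ranges where a sign changed or a count of called members moved by over 1.5 times. In liver, Cort on the HPD ranged from -0.18 to 0.20 for Glyctk and from -0.048 to 0.13 for Sord. Diet in Veh liver ranged from -0.24 to 0.32 for Slc2a2 and from -0.72 to 0.28 for Slc2a5, and the interaction of Slc2a5 from -0.20 to 0.79. In eWAT, Cort on the NPD ranged from -0.13 to 0.0075 for Sord, Cort on the HPD from -0.068 to 0.10 for Sord, diet in Veh mice from -0.23 to 0.38 for Glyctk, and diet under Cort from -0.18 to 0.52 for Glyctk. The eWAT interaction ranged from -0.33 to 0.13 for Khk, -0.18 to 0.29 for Tkfc, -0.47 to 4.58 for Slc2a5, -0.21 to 0.54 for Glyctk and -0.0074 to 0.18 for Sord. Between tissues, the HPD Cort response had 0 to 2 members called and ranged from -3.51 to 1.06 for Slc2a5 and -0.13 to 0.12 for Sord, and the diet difference had 0 to 1 called higher and 0 to 1 called lower. Calls also changed with no change of sign. In liver, Cort on the NPD lost Sord without 6 of 15 libraries (0.39 to 0.52) and gained Glyctk without 3 (0.36 to 0.70), giving 4 to 6 members higher, and Cort on the HPD gained Slc2a2 without 1 (0.30 to 0.86), giving 3 to 4. Diet under Cort lost Sord without 6 (-0.58 to -0.48) and Glyctk without 1 (-1.06 to -0.64) and gained Tkfc without 2 (-0.74 to -0.42), giving 2 to 3 members lower. Between tissues, Glyctk was lost on the NPD without 9 of 16 libraries (1.40 to 2.03), giving 2 to 3 members, Khk and Tkfc on the HPD without 9 and 5 of 15 (1.07 to 1.45 and 1.21 to 1.68), and for diet Khk was lost without 2 of 16 (-1.66 to -1.32) and Slc2a5 gained without 1 (2.21 to 4.08).

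The number of all genes called ranged over the alternatives from 998 to 2014 for Cort on the NPD in liver (1565 as reported), 714 to 1547 on the HPD (1226), 5 to 113 for diet in Veh mice (21), 356 to 1075 for diet under Cort (729) and 1 to 130 for the interaction (14). In eWAT the ranges were 872 to 1536 (1212), 581 to 1265 (925), 4 to 126 (9), 26 to 195 (74) and 0 to 14 (2). Between tissues they were 9784 to 11949 for the level in Veh NPD mice (10326), 423 to 941 for Cort on the NPD (635), 339 to 842 on the HPD (514) and 80 to 479 for diet under Cort (202).

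Deviations from group means correlated above 0.1 in 3 of 21 same-numbered liver pairs, against 8 of 63 with different numbers. In eWAT it was 1 of 24 against 3 of 72. Across tissues of a group it was 1 of 15 against 0 of 45, with a median r of 0.022 against -0.015. The main fits did not pair samples by number. These small correlations cannot settle whether same-numbered liver and eWAT libraries came from the same mouse. A fit with the replicate number as a block took the call from Sord for Cort on the NPD in liver (0.46, adjusted p = 0.051). For the Cort and diet responses between tissues, the block instead paired liver and eWAT libraries of the same treatment, diet and number. It took the call from Glyctk on the NPD (1.68, adjusted p = 0.094) and from Khk on the HPD (1.04, adjusted p = 0.14). No other member's call changed with either block. No eWAT library held more than 72 counts of Slc2a5, Slc2a2 or Glyctk, so counting error adds to their spread there, and the 2 were not separated.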
